A study of Mus musculus with 12 samples.

Results

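Natural killer (NK) cell receptors and identity genes were followed in mouse pancreatic tumours treated with an inhibitor of focal adhesion kinase. The genes were Klrk1, Klrd1, Klrc1, Klrb1c, Klrg1, Klre1, Ncr1, Eomes, Tbx21 and Nkg7, 10 of the 27352 genes tested. They were taken by name: every non-control probe that the array files assign to one of them was used, 17 probes in all, and 15 of these passed the filter on dim probes. Each gene kept at least 1 probe, so all 10 were read.

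The mice were C57BL/6 females, given as 8 weeks old in the labels, and all carried orthotopic KP tumours. Of the 12 tumours, 6 came from mice that received the focal adhesion kinase inhibitor (FAKi, 50 mg/kg by gavage) and 6 from mice that received vehicle, in both groups for 14 days. The labels name neither the compound nor the tumour cells, and number the tumours without saying how each was sampled, so p-values measure the spread between these 12 samples. Total RNA of whole tumours was labelled with Cy5 and hybridised to 12 one-colour Agilent arrays. The series asks how targeting this kinase bears on pancreatic cancer and its response to checkpoint immunotherapy.

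NK cells kill target cells without a rearranged antigen receptor, and they act on the balance of activating and inhibitory receptors at their surface. Klrk1 (NKG2D) is an activating receptor for stress-induced ligands. Klrd1 (CD94) pairs with Klrc1 (NKG2A) as an inhibitory receptor for a non-classical MHC class I molecule, H2-T23. Klrb1c encodes the antigen used to recognise NK cells in C57BL/6 mice, Klrg1 is an inhibitory receptor that binds cadherins, and Ncr1 (NKp46) is the most NK-restricted receptor of the set. Eomes and Tbx21 (T-bet) are T-box transcription factors that direct NK cell development, and Nkg7 is a membrane protein of cytotoxic granules. Several of these genes are also used by activated T cells, and in bulk tumour RNA fewer cells of a type cannot be told apart from less RNA per cell.

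Between 71 and 156 of the 59305 non-control spots on each array were outliers and left out, none was saturated, and the share of spots well above background ran from 66.6% to 76.1%. A level is the log2 signal of the gene's probe after subtraction of the 75th percentile of its array, so 0 marks that percentile, a negative level lies below it, and levels of different probes are not compared. The arrays lay on 5 slides, of which 2 held both groups: slide 1 (FAKi tumour 5, vehicle tumours 3 and 5) and slide 4 (FAKi tumour 1, vehicle tumours 2 and 6). FAKi tumour 5 gave the highest of the 12 values for 6 of the 10 genes, against 6.04% of all genes, and vehicle tumour 1 gave the lowest for 6, against 16.1% of all genes. Without FAKi tumour 5 the difference is given for each gene where it moved by over 1.5 times or turned sign.

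The probes that carry the results are shown because probes of 1 gene did not always give the same answer. Both Klrk1 probes lie on the minus strand of chromosome 6 (mm9), at chr6:129562442-129562501 and chr6:129562482-129562771, and share a run of 20 bases, shown in capitals. The longest run shared by any other pair of these genes' probes was 9 bases.
Klrk1 A_66_P120419: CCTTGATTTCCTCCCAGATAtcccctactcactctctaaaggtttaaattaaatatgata
Klrk1 A_51_P189451: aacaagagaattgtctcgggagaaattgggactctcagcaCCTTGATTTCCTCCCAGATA
The single Klrd1 probe lies on the plus strand at chr6:129548391-129548450.
Klrd1 A_51_P280947: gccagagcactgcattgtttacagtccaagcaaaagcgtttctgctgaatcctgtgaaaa
Klre1, a lectin-like receptor next to Klrd1, was covered by 3 probes on the plus strand. The probe used to read the gene, chosen as the brightest, is annotated to a cDNA clone at chr6:129534979-129535038 and starts 724 bases past the end of the brighter RefSeq probe, at chr6:129534195-129534254. The third lies at chr6:129530081-129532024, where its 60 bases are spread over 1944 bases of the genome.
Klre1 A_51_P383544 (clone): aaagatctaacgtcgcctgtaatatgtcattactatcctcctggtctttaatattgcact
Klre1 A_55_P2071716 (RefSeq): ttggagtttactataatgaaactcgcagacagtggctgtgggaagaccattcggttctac
Klre1 A_52_P592222 (RefSeq): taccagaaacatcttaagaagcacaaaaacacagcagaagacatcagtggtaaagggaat

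No NK cell gene passed the test of FAKi against vehicle. In the limma fit over all genes with Benjamini-Hochberg adjustment, 0 of the 10 were called at an adjusted p under 0.05, where 0% of all 27352 genes were called, and each of the 10 had an adjusted p of 0.999. At an unadjusted p under 0.05 the count was also 0 of 10, where 4.79% of all genes passed (2.72% higher and 2.08% lower in FAKi tumours, which is 743 and 568 genes). The same limma fit on the authors' deposited table gave a split of 512 higher and 587 lower of 20890 genes. FAKi and vehicle values overlapped for all 10 genes, and did not overlap for 0.239% of all genes. The FAKi mean was higher for 9 of the 10 and lower for Klrc1, with a median difference of 0.25 log2, while 60.5% of all genes were higher and the median over all genes was 0.08. The standard error of the difference had a median of 0.48 log2 over the 10 genes, against 0.33 over all genes.

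**Figure D1:**
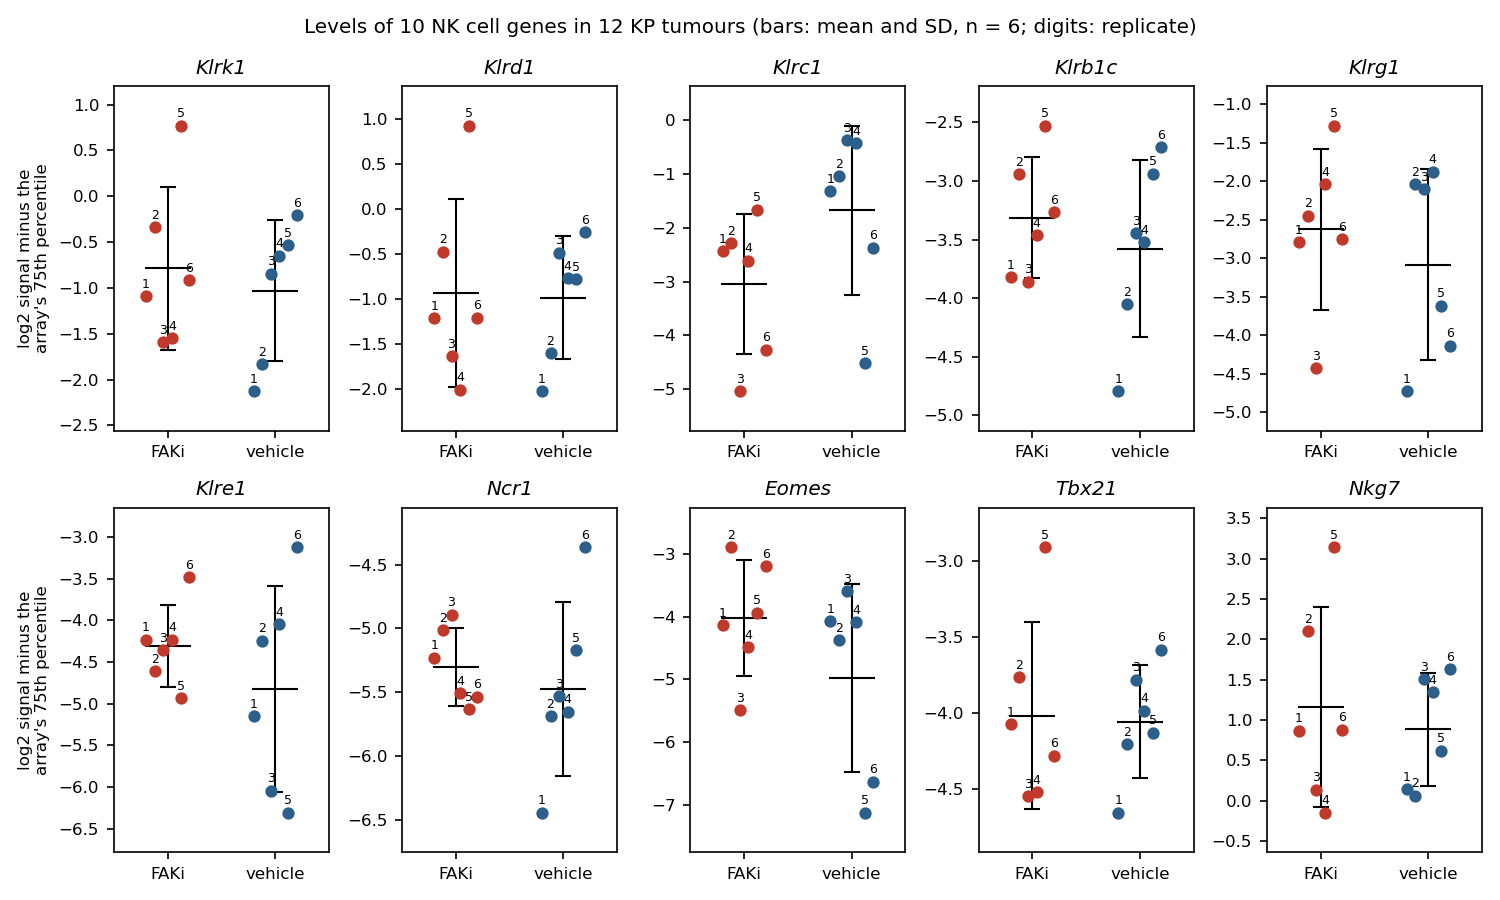
Levels of the 10 genes (log2 signal minus the array's 75th percentile, vertical axis; scales differ between panels) in FAKi tumours (red, left) and vehicle tumours (blue, right), with mean and SD over 6 tumours each and the replicate number beside each point. FAKi and vehicle values overlap in all 10 panels, and FAKi tumour 5 is the highest point for Klrk1, Klrd1, Klrb1c, Klrg1, Tbx21 and Nkg7.

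Among the activating receptors, Klrk1 had levels from -1.59 to 0.77 with a median of -1.01 in FAKi tumours, and from -2.13 to -0.21 with a median of -0.75 in vehicle tumours. FAKi tumour 5 stood highest, vehicle tumours 1 and 2 stood lowest, and the remaining tumours of both groups were intermixed. The difference was 0.25 log2 (SE 0.44, n = 6 each, 95% interval -0.71 to 1.20), which is a 1.19-fold ratio with an interval of 0.613 to 2.29. Without FAKi tumour 5 it was -0.066. Its second probe gave 0.26 and followed the first across tumours (r = 0.96), with the shared bases shown above.

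Ncr1, the most NK-restricted receptor of the set, had levels from -5.63 to -4.89 with a median of -5.37 in FAKi tumours, and from -6.44 to -4.36 with a median of -5.59 in vehicle tumours. The 6 FAKi tumours lay within the range set by vehicle tumours 1 (lowest) and 6 (highest). The difference was 0.17 log2 (SE 0.31, 95% interval -0.49 to 0.83), with -0.28 on slide 1 alone, -0.20 on slide 4 alone and -0.24 when slide entered the fit as a fixed block. Vehicle tumour 1 was the array with the highest 75th percentile of log2 signal (13.88) and vehicle tumour 6 the one with the lowest (11.82), and their part in the Ncr1 levels was not tested. Over the 12 tumours Ncr1 had r = -0.75 with that percentile (rho = -0.17, adjusted p of r over 20 relations 0.163, permutation test), and r = 0.25 without those 2 tumours.

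Klrb1c, which encodes the activating receptor NKR-P1C in this strain, had levels from -3.86 to -2.53 with a median of -3.36 in FAKi tumours, and from -4.79 to -2.71 with a median of -3.48 in vehicle tumours. Vehicle tumour 1 again stood lowest and FAKi tumour 5 highest. The difference was 0.26 log2 (SE 0.36, 95% interval -0.51 to 1.04), and 0.11 without FAKi tumour 5. A second probe gave -0.032 and followed the first across tumours (r = 0.81). Another was well above background on 1 of the 12 arrays and was not tested.

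Klrd1, the receptor chain that pairs with Klrc1, had levels from -2.01 to 0.93 with a median of -1.21 in FAKi tumours. In vehicle tumours they ran from -2.02 to -0.25 with a median of -0.77. Only 2 of the 6 FAKi tumours, 2 and 5, lay above the vehicle mean. The difference was 0.05 log2 (SE 0.47, 95% interval -0.95 to 1.05), and -0.32 without FAKi tumour 5.

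Klrc1, the partner of Klrd1, was the only member with a lower FAKi mean and had the smallest unadjusted p of the 10. Its levels ran from -5.04 to -1.67 with a median of -2.52 in FAKi tumours, and from -4.51 to -0.37 with a median of -1.18 in vehicle tumours. Vehicle tumours 1, 2, 3 and 4 stood above all 6 FAKi tumours, while vehicle tumours 5 and 6 lay among them. The difference was -1.37 log2 (SE 0.73, 95% interval -2.95 to 0.20, limma p = 0.0826, adjusted p = 0.999), a ratio of 0.386 with an interval of 0.129 to 1.15, and an exact two-sided permutation test over the 924 arrangements gave p = 0.126. Slide 1 alone gave 0.77 and slide 4 alone -0.73, and a fit with slide as a fixed block gave 0.023. The probe was well above background on all 12 arrays.

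Klrg1 had levels from -4.43 to -1.28 with a median of -2.60 in FAKi tumours, and from -4.73 to -1.87 with a median of -2.86 in vehicle tumours. Vehicle tumours split into 3 high values (2, 3 and 4) and 3 low ones (1, 5 and 6), and the FAKi values ran across both. The difference was 0.46 log2 (SE 0.59, 95% interval -0.81 to 1.73), and 0.19 without FAKi tumour 5. Its second probe, which followed the first across tumours (r = 0.93), gave -0.0012.

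Klre1 gave an answer that depended on the probe. The clone probe had levels from -4.94 to -3.48 with a median of -4.30 in FAKi tumours, and from -6.31 to -3.13 with a median of -4.70 in vehicle tumours, a difference of 0.51 log2 (SE 0.49). The probe A_55_P2071716 read from -5.63 to -2.98 in FAKi tumours and from -5.62 to -3.64 in vehicle tumours, a difference of 0.08 (SE 0.48), and the probe A_52_P592222 differed by -0.40 (SE 0.70). FAKi tumour 5 was the lowest of the FAKi tumours by the clone probe and the highest by both others. The clone probe was the brightest by a small margin. Its means were -4.31 in FAKi and -4.82 in vehicle tumours, against -4.56 and -4.63 for A_55_P2071716.

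Between the transcription factors, Eomes had the largest positive difference of the 10. Its levels ran from -5.49 to -2.89 with a median of -4.04 in FAKi tumours, and from -7.13 to -3.59 with a median of -4.23 in vehicle tumours. Vehicle tumours 5 and 6 stood lowest, and on these 2 arrays the probe was not well above background, while the other 4 vehicle tumours lay within the FAKi range. The difference was 0.96 log2 (SE 0.64, 95% interval -0.42 to 2.34, limma adjusted p = 0.999), a 1.94-fold ratio with an interval of 0.748 to 5.05, and the exact two-sided permutation test gave p = 0.221. It was 1.42 on slide 1 and 1.37 on slide 4, each of which holds 1 of those 2 arrays. It was 0.17 with array weights, 0.35 with normexp background correction, 0.53 without vehicle tumour 5 and 0.63 without vehicle tumour 6. A second Eomes probe was well above background on 4 of 12 arrays and was not tested.

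Tbx21 had levels from -4.55 to -2.91 with a median of -4.18 in FAKi tumours, and from -4.66 to -3.59 with a median of -4.06 in vehicle tumours. FAKi tumour 5 stood above the other 11, and 4 of the 6 FAKi tumours lay below the vehicle mean. The difference was 0.04 log2 (SE 0.30, 95% interval -0.60 to 0.68), and -0.18 without FAKi tumour 5.

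Nkg7, the granule protein, had levels from -0.15 to 3.14 with a median of 0.88 in FAKi tumours, and from 0.06 to 1.63 with a median of 0.98 in vehicle tumours. The 2 highest values were those of FAKi tumours 5 and 2 and the lowest that of FAKi tumour 4, so that the FAKi range held the whole vehicle range. The difference was 0.28 log2 (SE 0.52, 95% interval -0.85 to 1.41), and -0.12 without FAKi tumour 5.

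**Figure D2:**
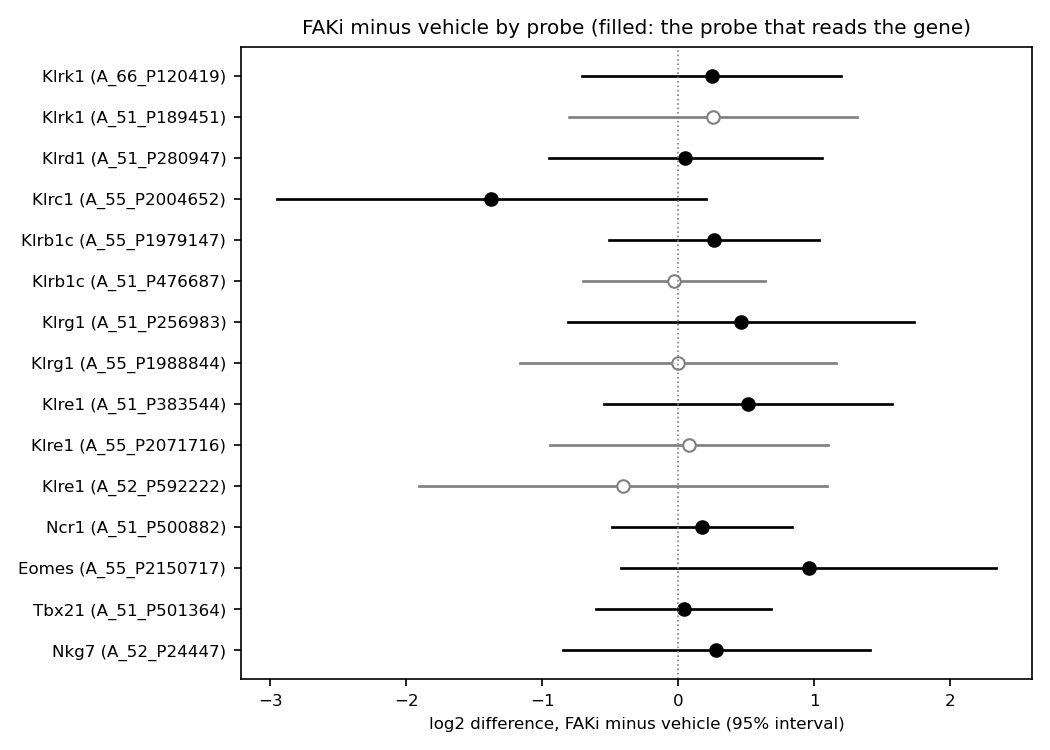
FAKi minus vehicle (log2, horizontal axis) with 95% intervals for the 15 tested probes, filled where the probe reads the gene and open for its other probes. All 15 intervals span 0, and Klrc1 at -1.37 and Eomes at 0.96 lie farthest from it.

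The genes varied more from tumour to tumour than most genes did. Their SD within groups was above the all-gene median of 0.59 log2 for 8 of the 10, the exceptions being Ncr1 (0.53) and Tbx21 (0.51), and it was largest for Klrc1 (1.44), wider than for 95.2% of genes. The SD was larger in FAKi than in vehicle tumours for 4 of the 10, where 27.7% of all genes had it so. These 4 were Klrk1, Klrd1, Tbx21 and Nkg7, and without FAKi tumour 5 the SD of FAKi tumours was 0.51 for Klrk1 and 0.33 for Tbx21, against 0.77 and 0.37 in vehicle tumours. For Klrd1 it was then 0.57, against 0.68 in vehicle tumours, and for Nkg7 it remained larger, 0.87 against 0.70 in vehicle tumours.

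Whether the genes varied together was asked by correlating them over the 12 tumours after each treatment group was centred on its own mean. All 45 pairs were computed, with permutation p-values from 100000 resamples within groups and Benjamini-Hochberg adjustment over the 45. Of these, 11 pairs passed by Pearson's r and 11 by Spearman's rho, and all were positive. The share of pairs of other genes that would pass was not computed, so the counts are not shown to be particular to these genes. Klrk1, Klrd1, Klrb1c, Tbx21 and Nkg7 were linked to each other in all 10 of their pairs, with r from 0.71 to 0.97 and rho from 0.83 to 0.97 (highest adjusted p 0.0223 for r and 0.00922 for rho, permutation test). These 5 genes were put together after their values were seen, so the grouping is a description. With quantile normalisation, normexp background correction or the authors' table, 9 of the 10 pairs passed by r. The second Klrb1c probe had r = 0.62 and rho = 0.62 with Klrd1 (adjusted p over 14 probes 0.0354 for r and 0.0838 for rho, permutation test). The closest pair by r was Klrd1 with Tbx21 (r = 0.97, rho = 0.94, adjusted p = 0.00072 for r and 0.0009 for rho, permutation test), a receptor chain and a transcription factor. By rho the closest was Klrk1 with Klrb1c (rho = 0.965, r = 0.90). Klrk1, an activating receptor, had r = 0.97 and rho = 0.90 with the receptor chain Klrd1.

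With the 2 tumours farthest from the median of the first gene left out, r of the 10 pairs ran from 0.58 to 0.96. Within slides, over the 9 arrays that share a slide with another array of their group and with each slide and group centred, r ran from 0.73 to 0.98. An exact permutation test used the 48 arrangements of those arrays within slide and group, and its smallest p is 0.0208. It passed 0 of the 45 pairs after adjustment, and 5 pairs had an unadjusted p under 0.05. For any pair to pass, many pairs would have to reach that smallest p together, so no conclusion is drawn from the 0. Those 9 arrays do not include FAKi tumour 5, and without this tumour alone 8 of the 10 pairs passed, with r of at least 0.64. No relation of the 10 genes to the array's 75th percentile or its share of spots well above background passed after adjustment over the 20 relations. The closest was Klrb1c with that share (r = -0.79, rho = -0.71, adjusted p 0.125 for r, permutation test). Klrk1, Klrd1, Klrb1c, Tbx21 and Nkg7 all had a negative r with both measures. It ran from -0.73 to -0.30 with the percentile and from -0.79 to -0.35 with the share. Klrb1c with both, Klrk1 and Eomes with the share and Ncr1 with the percentile had an unadjusted permutation p under 0.05. Their part in the links between the genes was not tested.

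**Figure D3:**
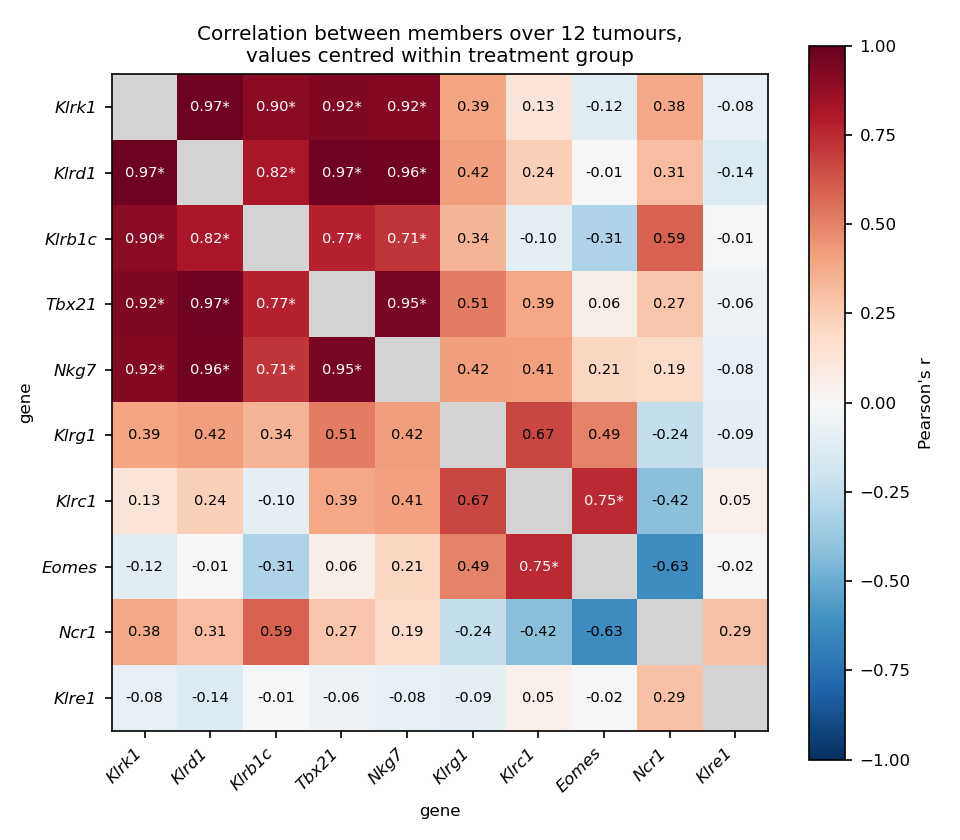
Pearson's r between the 10 genes over 12 tumours, values centred within treatment group, colour from -1 (blue) to 1 (red), with an asterisk where the adjusted permutation p of r was under 0.05. The 5 genes at the upper left are linked in all 10 of their pairs (0.71 to 0.97), and Klrc1 with Eomes (0.75) is the other pair that passed.

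Outside these pairs, 1 of 35 passed by r. Klrc1 and Eomes had r = 0.75 (adjusted p = 0.0411, permutation test) and rho = 0.63 (adjusted p = 0.163), and r was 0.39 without FAKi tumour 3 and vehicle tumour 5, so over 12 tumours the relation rests on those 2. Over the 9 arrays within slides, which include both of these tumours, it had r = 0.92 (exact permutation p = 0.125, adjusted p = 0.543). They also include vehicle tumours 5 and 6, where the Eomes probe was not well above background. Klrc1 and Klrg1, both inhibitory receptors, passed by rho (0.83, adjusted p = 0.0184, permutation test) and not by r (0.67, adjusted p = 0.09), and r was 0.65 without the same 2 tumours. The pair that forms 1 receptor, Klrd1 and Klrc1, had r = 0.24 (rho = 0.46), and the T-box factors Eomes and Tbx21 had r = 0.058 (rho = 0.098), neither of which passed.

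Ncr1 was linked to none of the other 9 genes at the threshold. With Klrk1 it had r = 0.38 over all 12 tumours and 0.82 over the 9 arrays within slides, and with Klrd1 0.31 and 0.77. Neither within-slide value passed the exact permutation test (adjusted p = 0.543 for both), which could hardly pass any pair after adjustment.

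The links of Klre1 turned on its probe. By the clone probe Klre1 had r = -0.14 with Klrd1, and by the probe A_55_P2071716 r = 0.89 and rho = 0.86 (adjusted p over 14 probes 0.00084 for r, permutation test). Over the 9 arrays within slides the clone probe had r = 0.59 with Klrd1, 0.66 with Klrk1 and 0.72 with Klrb1c. None of these passed the exact permutation test (adjusted p = 0.75), which could hardly pass any pair after adjustment. The clone probe had r = 0.061 with A_55_P2071716 and 0.20 with A_52_P592222, and these 2 had 0.44 with each other, none of which passed over the 6 pairs of probes of 1 gene. Read by A_55_P2071716, an alternative chosen after the values were seen, Klre1 also passed with Klrk1 (r = 0.94), Nkg7 (0.89), Tbx21 (0.85) and Klrb1c (0.77), and the number of linked pairs was 16 of 45.

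**Figure D4:**
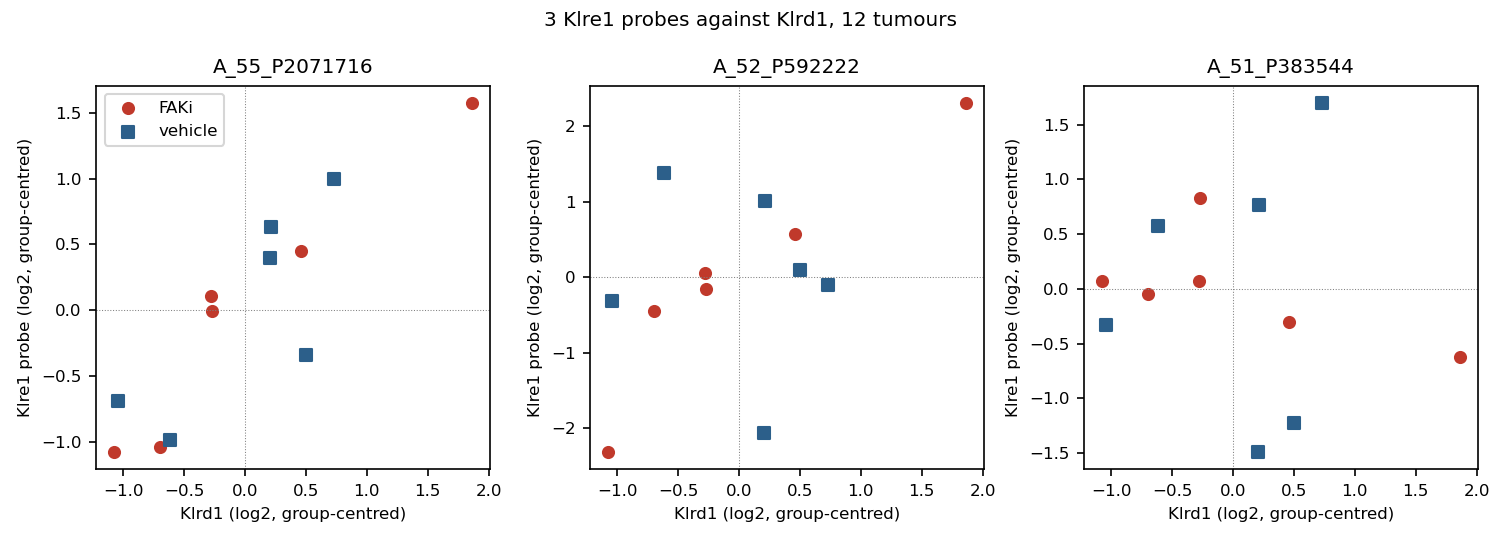
Each of the 3 Klre1 probes (vertical axis) against the Klrd1 probe (horizontal axis), log2 values centred within treatment group, over 6 FAKi (red circles) and 6 vehicle (blue squares) tumours. The points of A_55_P2071716 climb with Klrd1 (r = 0.89), and those of the clone probe A_51_P383544 do not (r = -0.14).

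Since T cells use several of these genes, each was set against a T cell level, the mean of Cd3d, Cd3e, Cd3g, Cd5, Cd6 and Lat. That level ran from -1.66 to 0.73 in FAKi tumours and from -1.44 to -0.19 in vehicle tumours, and FAKi tumour 5 had the highest value of the 12. Of the 10 genes, 6 passed by r: Tbx21 (r = 0.94, rho = 0.93), Nkg7 (0.91, 0.83), Klrd1 (0.89, 0.87), Klrk1 (0.86, 0.76), Klrg1 (0.71, 0.66) and Klrb1c (0.69, 0.70), with adjusted permutation p-values from 0.0014 to 0.0211. Klrc1 passed by rho (0.73, adjusted p = 0.0254, permutation test) and not by r (0.59, adjusted p = 0.0637). Ncr1 had r = 0.066 (r = -0.53 without vehicle tumours 1 and 6), Eomes r = 0.25 and Klre1 by its clone probe r = -0.0045, none of which passed. Read by A_55_P2071716, the alternative chosen after the values were seen, Klre1 had r = 0.81 and rho = 0.81 (adjusted p = 0.00846 for r, permutation test). The count that passed by r was then 7 of 10. The share of all genes that would pass with this level was not computed.

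Leaving out the 2 tumours farthest from each gene's median gave r = 0.79 for Tbx21, 0.77 for Nkg7, 0.65 for Klrd1, 0.63 for Klrk1, 0.47 for Klrg1 and 0.39 for Klrb1c. Without FAKi tumour 5, 4 genes passed (Tbx21, Nkg7, Klrd1 and Klrk1), and Klrg1 (adjusted p = 0.0818) and Klrb1c (adjusted p = 0.0883) did not, by the same permutation test over 11 tumours. Within slides, r was 0.91 for Tbx21, 0.83 for Nkg7, 0.81 for Klrd1, 0.79 for Klrk1, 0.75 for Klrb1c, 0.66 for Klrg1, 0.62 for Klrc1, 0.56 for Klre1 by its clone probe, 0.45 for Eomes and 0.38 for Ncr1. By the exact permutation test over 48 arrangements 0 of the 10 passed after adjustment, and 1, Tbx21, had an unadjusted p under 0.05. Here too, a pass after adjustment needed several genes at the smallest p together, so no conclusion is drawn from the 0. With the level of leukocytes in general (Ptprc, Coro1a, Cd53, Laptm5, Cd52 and Cd37), 0 of the 10 passed, 1 had an unadjusted p under 0.05 and the r values ran from -0.64 for Klre1 to 0.52 for Klrd1. No difference between these 2 sets of correlations was tested.

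**Figure D5:**
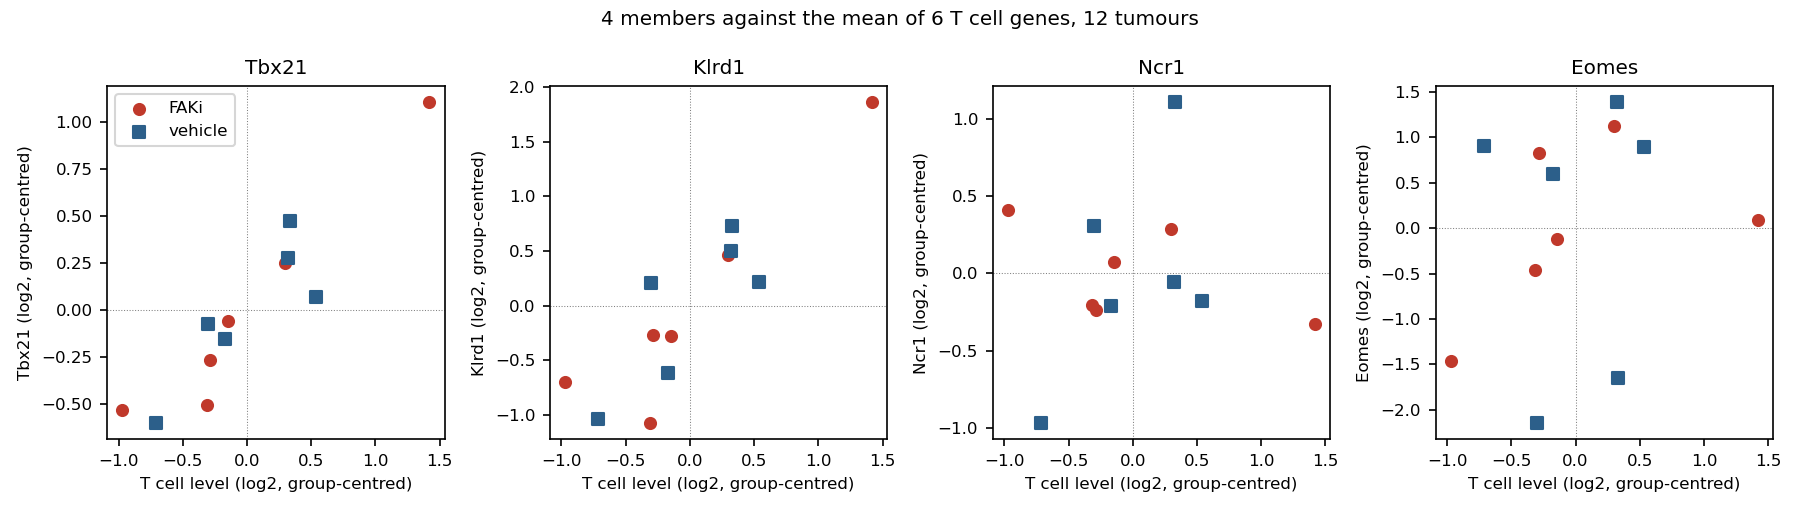
Tbx21, Klrd1, Ncr1 and Eomes (vertical axes) against the T cell level (horizontal axes), log2 values centred within treatment group, over 6 FAKi (red circles) and 6 vehicle (blue squares) tumours. Tbx21 (r = 0.94) and Klrd1 (r = 0.89) climb with the T cell level, FAKi tumour 5 lies at the far right, and Ncr1 (r = 0.066) and Eomes (r = 0.25) show no such line.

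The genes most like the mean of the 10 over the 12 tumours, of 16907 named genes, were Klk1 (r = 0.96), Mzb1 (0.95), Sla2 (0.93), Cd27 (0.93), Cd3d (0.92), Zap70 (0.92), Pdcd1lg2 (0.92) and Zcchc18 (0.92). Those most like Ncr1 were Rem1 (0.95), Krt26 (0.95), Neb (0.93), Mfsd7a (0.92), Fmo2 (0.92), Arnt2 (0.92), Kirrel2 (0.92) and Ceacam14 (0.91). The probe of Ceacam14 was well above background on 7 of the 12 arrays. No gene stood in both lists. These correlations used values centred within treatment group, were the highest of many and carry no test. Ncr1 was lowest in vehicle tumour 1 and highest in vehicle tumour 6, the arrays with the highest and the lowest 75th percentile. Their part in its list was not tested.

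Promoters are shown for Klrk1, Klrb1c, Tbx21 and Nkg7, the linked genes with an entry, because both motifs searched for belong to factor families that act in NK cells. RefSeq promoters (GRCm38.p6, 300 bases each, most of them before the gene start) were found for 8 of the 10 genes, in 10 promoters, with none for Klrd1 and Klrg1. The T-box sequence AGGTGTGA or its reverse TCACACCT stood in 1 of these 10, that of Nkg7, and in 1.28% of all 32851 promoters. The RUNX sequence TGTGGT or its reverse ACCACA stood in 7 of the 10, over 6 genes (Klrb1c, Klrc1, Klre1, Klrk1, Ncr1 and Nkg7), and in 16.8% of all promoters. In Nkg7 the T-box match begins 14 bases before the gene start and the RUNX match 83 bases before it. In Klrk1 and Klrb1c the RUNX match begins 129 and 89 bases before the start. The Tbx21 promoter holds neither. The matches, in capitals, are a description of these letters.
Nkg7 promoter (plus strand, chr7:43436888-43437187): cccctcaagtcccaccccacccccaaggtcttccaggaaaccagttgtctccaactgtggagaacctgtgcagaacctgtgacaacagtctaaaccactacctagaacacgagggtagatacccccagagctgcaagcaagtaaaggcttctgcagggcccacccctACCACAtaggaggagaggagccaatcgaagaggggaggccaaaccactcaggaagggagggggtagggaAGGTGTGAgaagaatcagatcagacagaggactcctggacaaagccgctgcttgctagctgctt
Klrk1 promoter (minus strand, chr6:129623815-129624114): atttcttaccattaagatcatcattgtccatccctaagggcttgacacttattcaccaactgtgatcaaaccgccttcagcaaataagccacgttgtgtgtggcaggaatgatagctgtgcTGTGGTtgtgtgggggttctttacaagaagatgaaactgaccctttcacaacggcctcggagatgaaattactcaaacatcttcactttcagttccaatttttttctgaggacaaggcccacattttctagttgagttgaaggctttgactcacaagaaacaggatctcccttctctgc
Klrb1c promoter (minus strand, chr6:128788592-128788891): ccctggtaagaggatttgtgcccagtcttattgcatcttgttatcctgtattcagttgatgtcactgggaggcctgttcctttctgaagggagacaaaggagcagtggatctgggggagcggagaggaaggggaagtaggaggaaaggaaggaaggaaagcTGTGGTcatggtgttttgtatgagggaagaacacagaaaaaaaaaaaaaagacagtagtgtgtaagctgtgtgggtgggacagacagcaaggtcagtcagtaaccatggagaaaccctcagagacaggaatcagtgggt
Tbx21 promoter (minus strand, chr11:97115282-97115581): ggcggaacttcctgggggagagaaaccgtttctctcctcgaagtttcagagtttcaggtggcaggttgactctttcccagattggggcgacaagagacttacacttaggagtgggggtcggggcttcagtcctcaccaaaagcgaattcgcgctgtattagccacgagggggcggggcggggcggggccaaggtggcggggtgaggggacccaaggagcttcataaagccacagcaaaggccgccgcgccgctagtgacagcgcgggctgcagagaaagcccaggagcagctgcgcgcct

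The ligands of these receptors gave no call either. Of 18 measured ligand genes, 0 passed, 9 were higher and 9 lower in FAKi tumours, with a median difference of 0.0056 log2. Of the NKG2D ligands, Raet1b had 1.25 ± 0.42 in FAKi and 1.42 ± 0.51 in vehicle tumours (SD, n = 6 each), and Raet1e had 0.95 ± 0.46 in FAKi and 1.18 ± 0.59 in vehicle tumours. Raet1a, Raet1c, H60a, H60c and Ulbp1 differed by -0.24 to 0.053 log2, and another probe of Raet1a gave 0.46. The 2 ligands of smallest p, Clec2e (0.40, SE 0.30) and Clec2g (0.19, SE 0.22), are lectin-like genes. H2-T23, which Klrd1 and Klrc1 recognise, had 4.17 ± 0.70 in FAKi and 3.97 ± 0.59 in vehicle tumours, a difference of 0.20 (SE 0.36). The cadherins bound by Klrg1, Cdh1 and Cdh2, differed by 0.026 (SE 0.36) and 0.16 (SE 0.50), and another probe of Cdh2 gave 0.96. The Raet1 genes are close copies of each other, and so are Klra and Klrc genes, so their probes may share signal, which was not tested.

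Among 25 other NK receptors 0 passed, with 9 higher and 16 lower and a median of -0.11. The smallest p-values were those of Klrc3 (difference -2.04, SE 1.04) and Klra7 (-1.47, SE 0.81), each well above background on 5 of 6 FAKi and 6 of 6 vehicle arrays, both with an adjusted p of 0.999. Klrc3, a close relative of Klrc1, had from -8.40 to -1.46 in FAKi tumours and from -4.02 to -0.11 in vehicle tumours.

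The 16 adaptor and signalling genes had 7 higher and 9 lower (median -0.078). The 2 of smallest p were Plcg2, a phospholipase downstream of receptors, at -0.89 (SE 0.36, limma adjusted p = 0.999, unadjusted p under 0.05) and Inpp5d, the phosphatase SHIP, at -0.58 (SE 0.34). Of 16 transcription factors 7 were higher and 9 lower (median -0.029), and Gata3 had the smallest p: -1.61 ± 0.79 in FAKi and -0.36 ± 0.68 in vehicle tumours, a difference of -1.25 (SE 0.40, limma adjusted p = 0.92, unadjusted p under 0.05). Bach2, a repressor, followed at -0.54 (SE 0.48), while its other probe gave 0.41. The 23 cytokines and receptors had 6 higher and 17 lower (median -0.16), with Il18rap, a chain of the interleukin-18 receptor, at -1.14 (SE 0.58) and Cx3cr1, a chemokine receptor, at -0.71 (SE 0.46).

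The 14 cytotoxic effectors had 7 higher and 7 lower, and 2 with an unadjusted p under 0.05, both granzymes higher in FAKi tumours. Of all genes, 4.79% had an unadjusted limma p under 0.05, with 2.72% higher in FAKi tumours. This list was 1 of 18, chosen with earlier results of these data known, so the 2 granzymes are a description. Gzmf had from -4.50 to -2.59 in FAKi tumours and from -6.77 to -4.39 in vehicle tumours, a difference of 2.37 (SE 0.49, limma adjusted p = 0.551), and was well above background on 6 FAKi and 4 vehicle arrays. Gzmb had from -3.58 to -1.07 in FAKi tumours and from -5.10 to -2.44 in vehicle tumours, a difference of 1.35 (SE 0.57, limma adjusted p = 0.999), and was well above background on 6 FAKi and 5 vehicle arrays. Prf1, perforin, differed by 0.68 (SE 0.38), with all 6 FAKi tumours above the vehicle mean. All of these miss the threshold after adjustment over all genes.

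Markers of cell types gave 0 calls in each of 12 lists. The 9 other NK and ILC1 markers had 6 higher and 3 lower (median 0.16), and their mean level ran from -1.30 to 0.12 in FAKi and from -1.50 to -0.31 in vehicle tumours. The 11 T cell markers had 9 higher and 2 lower (median 0.080), with mean levels from -1.77 to 0.28 in FAKi and from -1.74 to -0.59 in vehicle tumours. Median differences were 0.37 for 4 neutrophil, 0.42 for 5 acinar, 0.23 for 3 muscle, -0.030 for 6 tumour epithelium, -0.028 for 5 fibroblast, -0.039 for 6 myeloid, -0.081 for 6 leukocyte, -0.097 for 3 NKT and gamma-delta T cell, -0.16 for 4 B cell and -0.34 for 3 endothelial markers. The 2 markers of smallest p were Prf1 and Cd27 (0.62, SE 0.54) for NK and ILC1, Trat1 (0.49, SE 0.33) and Cd28 (0.16, SE 0.30) for T cells, and Cd79b and Cd79a (0.65, SE 0.37) for B cells. Of the NKT and gamma-delta T cell markers, Zbtb16 differed by -0.24 (SE 0.34). For myeloid cells the 2 of smallest p were Cd14 (0.30, SE 0.26) and Adgre1 (-0.46, SE 0.40), for neutrophils Cxcr2 (0.54, SE 0.43) and S100a8 (0.45, SE 0.52), and for leukocytes Coro1a (-0.27, SE 0.30) and Cd52 (0.14, SE 0.31). For tumour epithelium they were Krt19 (0.36, SE 0.34) and Epcam (-0.55, SE 0.62), for fibroblasts Pdgfrb (0.32, SE 0.32) and Col1a1 (-0.058, SE 0.29), for acinar cells Cela1 (1.11, SE 0.64) and Pnlip (0.42, SE 0.31), for endothelium Cdh5 and Kdr (-0.34, SE 0.31), and for muscle Myh4 (0.23, SE 0.34) and Acta1 (-0.77, SE 1.25). Other probes of the same gene had the opposite sign for Trat1 (-0.17), Zbtb16 (0.27), Adgre1 (0.25), Col1a1 (0.059), Kdr (0.66) and Myh4 (-1.19). Of all these markers, Cdh5 of the endothelial list (-1.05, SE 0.37, limma adjusted p = 0.993) and Cd79b of the B cell list (-0.66, SE 0.30, limma adjusted p = 0.999) had an unadjusted p under 0.05. Such a p was found for 4.79% of all genes.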

How the data were processed

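RNA of 12 tumours was measured on 12 arrays, 6 FAKi and 6 vehicle. The intensity values were made with Agilent Feature Extraction 11.5.1.1, per the file headers, with background subtraction and with detrending over the array surface. They are red-channel processed signals, deposited before normalisation between arrays. A table of log2 values for 38569 probes, deposited by the authors, served as an alternative. Per the submitters' processing notes limma was used, and no source used here gives its version or the normalisation behind the table. Each of its columns matched its own array best (r of at least 0.9965 across probes), with medians from 10.71 to 10.90, so it is a log2 level that is not centred per gene, and how its probes were chosen is unknown. The headers name mm9 for 11 arrays, and the build is not given for FAKi tumour 6.

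Computed here were log2 values minus the 75th percentile of the array's non-control spots, averaged over the spots of a probe. Of 56605 probes, 40459 were well above background on at least 6 of 12 arrays. A gene was read by its kept probe of highest mean, and was named by RefSeq accession, then symbol, then synonym, else by the array's name. FAKi and vehicle were compared with limma 3.58.1 (lmFit, eBayes, R 4.3.3), Benjamini-Hochberg over 27352 genes, threshold 0.05. The fit and the correlations were tested on simulated data. Correlations used scipy 1.17.1 and numpy 2.4.6. The number of arrays limits the precision.

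The genes and the 18 lists (186 different genes, 171 measured, 6 in more than 1 list) were chosen with earlier results of these data known. Named were all 10 genes, the 2 genes of smallest p in each list, with the ligands Raet1a, Raet1b, Raet1c, Raet1d, Raet1e, H60a, H60b, H60c, Ulbp1, H2-T23, Cdh1, Cdh2 and Cdh4 where measured, and the 8 genes most alike, except 1 marker that is not reported here. Replicate numbers of the groups did not pair the tumours (correlations of deviations from -0.12 to 0.49).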

Additional observations from a re-analysis of the deposited data

How the results depend on the processing

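The count of genes called over all genes was 0 and stayed 0 except for 1 with normexp background correction (offset 50), 3 with array weights and 3 without FAKi tumour 1, so that leaving out 1 tumour gave 0 to 3. At an unadjusted p under 0.05, 743 genes were higher and 568 lower. These counts were 3024 and 750 without vehicle tumour 6, 3489 and 1582 with array weights, 443 and 429 without FAKi tumour 2, 398 and 365 without FAKi tumour 4, and 270 and 224 with slide as a fixed block, where fewer degrees of freedom remain. They were 627 and 641 with quantile normalisation and 539 and 561 with median centring.

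No NK cell gene passed the threshold under any alternative run. Of 274 values of the 10 genes under alternatives, 244 kept direction and side, 26 turned sign and 4 moved. The 244 include alternatives that cannot change a difference, among them trend and robust fitting, the replicate block and the exact permutation test. The 244 is therefore not a measure of stability. Within slide 1 the moved values were 1.46 for Klrk1, 1.56 for Klrd1, 1.04 for Tbx21 and 2.07 for Nkg7, and Klrc1 was 0.77 and Ncr1 -0.28. Within slide 4 Klrk1 was -0.074, Klrd1 -0.29, Klrb1c -0.44, Klre1 -0.55, Ncr1 -0.20 and Tbx21 -0.18. With slide as a fixed block Klrc1 was 0.023 and Ncr1 -0.24, while Klrk1 was 0.69, Klrd1 0.64, Klrb1c 0.11, Klrg1 0.94, Klre1 0.34, Eomes 1.40, Tbx21 0.43 and Nkg7 1.05. Other probes gave -0.032 for Klrb1c, -0.0012 for Klrg1 and -0.40 for Klre1, and array weights gave -0.0050 for Klrg1. Tbx21 was -0.025 with quantile normalisation and -0.026 in the authors' table. Leaving out 1 tumour gave -0.066 to 0.41 for Klrk1, -0.32 to 0.27 for Klrd1, -0.021 to 0.39 for Ncr1, -0.18 to 0.15 for Tbx21 and -0.12 to 0.54 for Nkg7. Eomes was positive in the 26 alternatives run, some of which could not change it, from 0.17 with array weights to 1.42 within slide 1. The cause was not tested.

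The count of linked pairs (11) lay between 8 and 12 without 1 tumour (8 without FAKi tumour 5, and 11 positive with 1 negative pair without vehicle tumour 1), and the count of genes linked to the T cell level (6) between 4 and 7. The count linked to the leukocyte level, added after the data were seen, was 0, and ran from 0 to 1 without 1 tumour. It was 1 without vehicle tumour 1 and 1 without vehicle tumour 4, in each case a negative relation. With values centred within slide and group, over 9 arrays and 48 arrangements (smallest p 0.0208), 0 of 45 pairs, 0 of 10 genes with the T cell level and 0 of 10 with the leukocyte level passed the exact permutation test, with 5 pairs and, for the T cell level, 1 gene at an unadjusted p under 0.05. Fewer arrays enter this test, and with so few arrangements it could hardly pass any relation after adjustment. For Eomes, no probe was well above background on all 12 arrays. The numbers are not paired, and with a replicate block 0 genes were called, with 1 of 6 tumours closest to its own number. Dim probes limit Eomes and, by its clone probe, Klre1, which were not well above background on 2 and 1 of the 12 arrays. The Klre1 probe A_55_P2071716 was well above background on all 12.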
